A study of Mus musculus with 8 samples.

Results

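Bulk RNA-seq was carried out on Kupffer cells, the macrophages that reside in the liver sinusoids, isolated from mice of wild-type genotype. The results here concern 10 genes of the BMP and TGF-beta signalling chain, taken by name: the receptors and co-receptor Eng, Acvrl1, Tgfbr1, Tgfbr2, Bmpr1a and Bmpr2, the SMAD genes Smad4, Smad6 and Smad7, and the co-repressor gene Skil. They are 10 of the 32903 genes to which the deposited transcripts could be summed. The 3 CCl4 libraries came from mice with liver fibrosis after carbon tetrachloride, a toxin that injures hepatocytes, given in corn oil at 0.75 mL/kg for 8 weeks with 3 doses a week. The 5 naive libraries came from untreated mice, and none of the libraries came from mice given corn oil alone. Effects of corn oil and of repeated dosing therefore cannot be told apart from those of carbon tetrachloride in any comparison below. The labels number the CCl4 libraries 1, 2-4 and 3, without saying whether 2-4 is a pool of animals. Nor do they say that the libraries are from different animals, so the p-values rest on a spread among libraries that may be technical in part. Values are in TPM, an abundance per transcript length that is scaled to 1 total in all libraries, and the sequencing depth behind them is unknown.

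Ligands of this family bind a type II receptor kinase, which phosphorylates a type I receptor kinase, which in turn phosphorylates a receptor-regulated SMAD. BMP receptors act on SMAD1, SMAD5 and SMAD9, and TGF-beta and activin receptors on SMAD2 and SMAD3. Both kinds bind the common partner SMAD4 and enter the nucleus, where SMAD6 and SMAD7 are induced and inhibit the chain and where SKI and SnoN, the product of Skil, repress SMAD target genes. In the mouse liver, the type I receptor ALK1, the product of Acvrl1, and SMAD4 are known to maintain Kupffer cell identity, and endoglin, the product of Eng, and ALK1 are also well known in endothelium.

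Of the 10 genes, 5 fell and 2 rose in the CCl4 libraries, and 3 did not pass the test (limma on log2(TPM + 1), adjusted p under 0.05). Eng fell most, to a mean of 40.1 ± 6.18 TPM in CCl4 libraries against 664 ± 171 TPM in naive libraries (SD, n = 3 and 5). Bmpr2, Smad6, Bmpr1a and Tgfbr2 also fell, Tgfbr1 and Skil rose, and Acvrl1, Smad4 and Smad7 were not called. Over all 15629 genes tested, 37.8% were called, 15.3% as higher and 22.5% as lower, and with quantile normalization 4011 genes were called higher and 3086 lower, against 2393 and 3513 as deposited. The median log2 fold change was -0.44 over the 10 genes and -0.064 over all genes tested. The CCl4 and naive values did not overlap for 6 of the 10 genes, 4 lower and 2 higher, where 36.9% of all tested genes had no overlap, 20.6% with lower and 16.3% with higher CCl4 values. Bmpr1a was under 1 TPM in every CCl4 library and passed the filter on low values (1 TPM in 3 libraries) through its naive values alone.

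**Figure D1:**
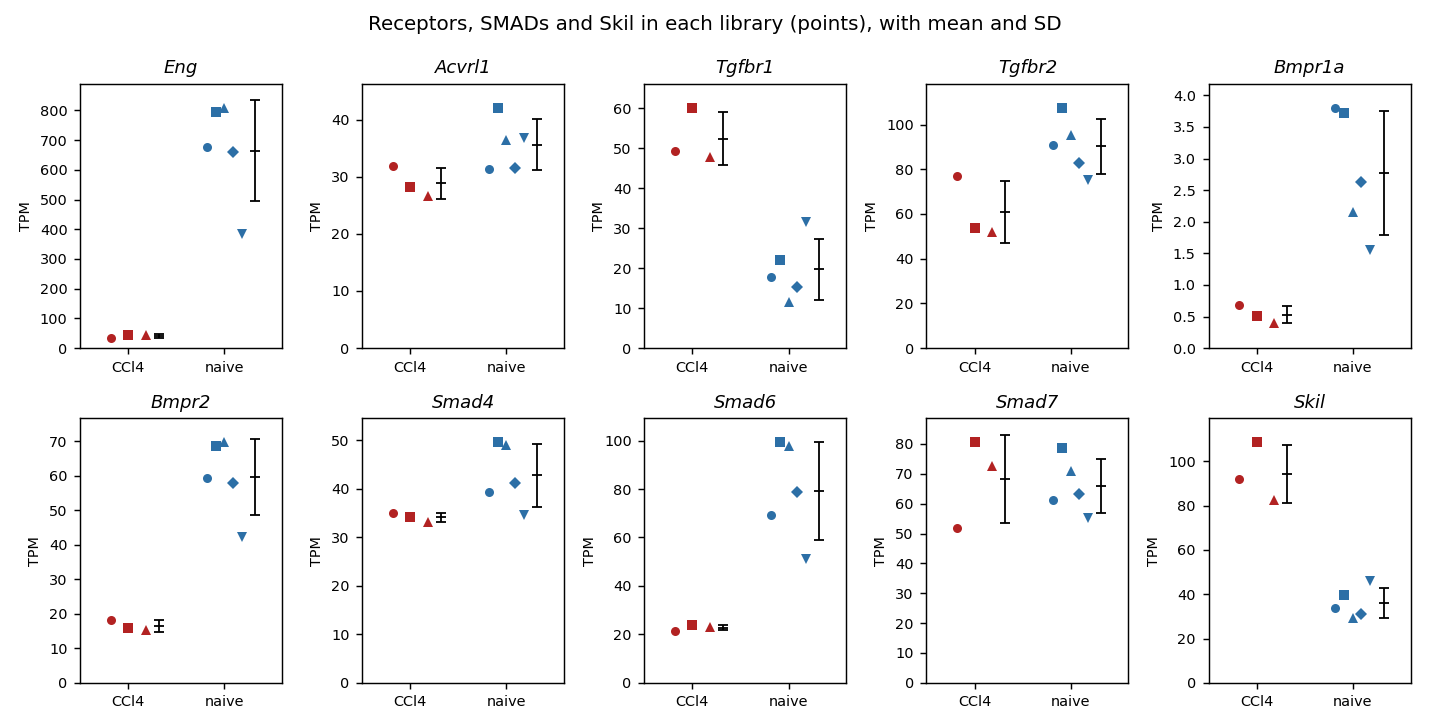
TPM of each of the 10 genes in the 3 CCl4 libraries (red, left; circle 1, square 2-4, triangle 3) and the 5 naive libraries (blue, right; circle 1, square 2, upward triangle 3, diamond 4, downward triangle 5), each panel on its own linear axis from 0, with the mean and SD in black. Eng, Bmpr1a, Bmpr2 and Smad6 lie lower in every CCl4 library than in any naive library and Tgfbr1 and Skil higher, while the groups overlap for Acvrl1, Tgfbr2, Smad4 and Smad7.

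Markers of several cell types differed between the groups, which touches every result here. All 12 Kupffer cell markers were detected in every library, and all 12 fell, to a summed level of 419.9 to 526 TPM in CCl4 libraries against 3264 to 6869.7 TPM in naive libraries. All 24 markers of liver endothelium were also detected in every library and all 24 fell, to a sum of 329 to 863 TPM in CCl4 libraries against 8395 to 15718 TPM in naive libraries. Of 8 tested monocyte markers 5 rose, and the summed level of the 10 listed was 2668 to 5978 TPM in CCl4 libraries against 640.0 to 1294 TPM in naive libraries. Of 9 pan-macrophage markers, a list that shares Lyz2 with the monocyte markers, 2 rose, 1 fell and 6 were not called. Their sum was 4782 to 11525 TPM in CCl4 libraries and 3559 to 6898 TPM in naive libraries, with overlap. Of 7 dendritic cell markers 3 rose and 2 fell. Their sum was 299 to 438 TPM in CCl4 libraries against 184 to 253 TPM in naive libraries. Of 7 lymphocyte markers 2 fell and none rose, and of 2 tested neutrophil markers 1 rose and 1 fell. Hepatocyte markers fell in 5 of 9 cases and none rose, and of 13 tested markers of stellate cells and myofibroblasts 3 rose and 4 fell. In bulk RNA, fewer cells of a type and less RNA per cell cannot be told apart, and the part of these cell types in the results below was not tested. Naive library 5 stood apart from the other naive libraries, with a Pearson's r across genes of 0.943 to 0.951 with them, where they had 0.968 to 0.981 with each other. It held the lowest naive value for 7 of the 10 genes and the highest for 2, Tgfbr1 and Skil. Without it 8 of the 10 genes were called, Smad4 in addition.

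Promoter windows are shown for Eng, Bmpr2 and Smad6, which fell together, and for both starts listed for Tgfbr1, which rose. They run from 250 bases before a start to 50 from it on, 5′ to 3′ on the gene's strand, from a RefSeq table of GRCm38.p6 that held 7 windows for 6 of the 10 genes. Capitals mark CAGAC or its complement GTCTG, the core of the CAGA box that SMAD3 and SMAD4 bind, and GGCGCC, a GC-rich element that BMP-regulated SMADs bind, both searched on both strands. No marked motif overlapped another. For Bmpr2, GENCODE places the start of the transcript NM_007561 at 59763400, upstream of the window and outside it.
Eng, chr2:32646345-32646644, plus strand: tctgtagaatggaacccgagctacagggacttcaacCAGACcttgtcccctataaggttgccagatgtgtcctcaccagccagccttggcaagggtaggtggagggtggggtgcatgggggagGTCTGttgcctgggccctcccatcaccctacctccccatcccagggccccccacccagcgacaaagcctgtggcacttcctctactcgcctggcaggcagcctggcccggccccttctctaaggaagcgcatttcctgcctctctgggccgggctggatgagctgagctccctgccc
Bmpr2, chr1:59764029-59764328, plus strand: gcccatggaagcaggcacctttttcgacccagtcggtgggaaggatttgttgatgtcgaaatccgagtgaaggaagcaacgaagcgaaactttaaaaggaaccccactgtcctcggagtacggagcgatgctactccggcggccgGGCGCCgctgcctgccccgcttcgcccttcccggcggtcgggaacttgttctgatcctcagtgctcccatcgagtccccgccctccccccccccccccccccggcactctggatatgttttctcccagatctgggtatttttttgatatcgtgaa
Smad6, chr9:64022010-64022309, minus strand: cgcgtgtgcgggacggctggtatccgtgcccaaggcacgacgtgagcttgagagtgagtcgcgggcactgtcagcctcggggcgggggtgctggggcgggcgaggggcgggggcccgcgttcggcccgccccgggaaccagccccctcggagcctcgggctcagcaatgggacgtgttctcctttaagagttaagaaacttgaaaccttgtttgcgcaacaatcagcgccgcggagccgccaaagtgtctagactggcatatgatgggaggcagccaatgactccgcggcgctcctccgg
Tgfbr1, upstream start, chr4:47352972-47353271, plus strand: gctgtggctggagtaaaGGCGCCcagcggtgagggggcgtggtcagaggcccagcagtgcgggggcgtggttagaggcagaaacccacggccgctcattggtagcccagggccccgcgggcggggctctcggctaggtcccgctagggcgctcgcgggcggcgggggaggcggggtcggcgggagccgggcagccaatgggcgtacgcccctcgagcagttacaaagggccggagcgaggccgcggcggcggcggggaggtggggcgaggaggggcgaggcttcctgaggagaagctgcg
Tgfbr1, downstream start, chr4:47385966-47386265, plus strand: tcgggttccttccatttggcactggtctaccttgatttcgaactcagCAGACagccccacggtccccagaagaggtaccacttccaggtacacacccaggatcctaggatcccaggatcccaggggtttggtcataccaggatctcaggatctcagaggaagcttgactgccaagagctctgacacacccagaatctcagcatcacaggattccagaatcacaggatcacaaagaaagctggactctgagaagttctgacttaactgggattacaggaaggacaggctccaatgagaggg

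The Eng window held 2 CAGAC or GTCTG motifs and the downstream Tgfbr1 window 1, a motif present in 49.6% of all 32851 windows of this length. The Bmpr2 and upstream Tgfbr1 windows held 1 GGCGCC each, which was present in 11.9% of all windows. The Smad6 window held neither. Of the windows not printed, that of Tgfbr2 held 1 CAGAC or GTCTG motif and that of Bmpr1a 1 GGCGCC, so among the 5 genes that fell Eng and Tgfbr2 held CAGAC or GTCTG, Bmpr2 and Bmpr1a the GC-rich one and Smad6 neither. A match is a description of letters and not of binding.

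Among the co-receptors, which present ligand to the kinases, Eng (GRCm38 chromosome 2, 32646595 to 32682669) had 33.0, 43.6 and 43.7 TPM in CCl4 libraries 1, 2-4 and 3, against 677, 793, 809, 659 and 383 TPM in naive libraries 1 to 5. Every CCl4 value was far below the lowest naive value, that of library 5. Its log2 fold change was -3.98 (SE 0.236, adjusted p = 1.59e-06), and the naive mean was 16.6 times the CCl4 mean. Eng was the most abundant of the 10 genes in naive libraries, where no other of them reached its lowest value, and the fifth in CCl4 libraries, where its values overlapped those of Smad4. Set against the markers of endothelium, Eng amounted to 76.0 ± 24.9 TPM per 1000 TPM of the summed list in CCl4 libraries against 52.9 ± 4.74 in naive libraries, and the ranges overlapped. Per 1000 TPM of the Kupffer cell list it was 87.6 ± 22.0 in CCl4 libraries against 142 ± 64.1 in naive libraries, again with overlap. Tgfbr3, which encodes the co-receptor betaglycan, fell alike, to 3.49 ± 1.33 TPM in CCl4 libraries against 66.1 ± 16.2 TPM in naive libraries (log2 fold change -3.91, adjusted p = 1.79e-06). Neo1, a receptor for repulsive guidance molecules, also fell (log2 fold change -1.23), at 0.459 to 0.667 TPM in CCl4 libraries and 1.87 to 3.07 TPM in naive libraries, and passed the filter through its naive values alone. The decoy receptor gene Bambi and the BMP co-receptor gene Rgmb did not pass (-0.34 and -0.21, adjusted p = 0.339 and 0.405).

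Of the type I receptors, Tgfbr1 rose, Bmpr1a fell and Acvrl1 was not called. Acvrl1 (chromosome 15, 101128522 to 101145336) stood at 31.8, 28.2 and 26.6 TPM in CCl4 libraries 1, 2-4 and 3, against 31.4, 42.1, 36.4, 31.5 and 36.8 TPM in naive libraries 1 to 5. CCl4 library 1 lay above the lowest naive values, and the log2 fold change of -0.29 (SE 0.141, adjusted p = 0.132) was not called. Acvrl1 stood in CCl4 libraries at 0.607 to 0.965 times the TPM of Eng, against 0.0450 to 0.0959 times in naive libraries. When TPM was rescaled to protein-coding genes the log2 fold change of Acvrl1 was -0.35 with an adjusted p of 0.0134.

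Tgfbr1 (chromosome 4, 47353222 to 47414926), which encodes the TGF-beta type I receptor ALK5, had 49.2, 60.1 and 47.9 TPM in CCl4 libraries 1, 2-4 and 3, against 17.8, 22.1, 11.6, 15.4 and 31.6 TPM in naive libraries 1 to 5. The groups did not overlap, and naive library 5 was the nearest to the CCl4 libraries. Relative to the naive mean, the CCl4 mean was 2.66 times as high, and the log2 fold change was 1.43 (SE 0.264, adjusted p = 0.00153). Bmpr1a (chromosome 14, 34411061 to 34503336), which encodes the BMP type I receptor ALK3, was low throughout, with 0.680, 0.514 and 0.400 TPM in CCl4 libraries and 3.81, 3.71, 2.16, 2.63 and 1.55 TPM in naive libraries. Its log2 fold change was -1.26 on the log2(TPM + 1) scale (SE 0.234, adjusted p = 0.00156) and ranged to -2.14 with a pseudocount of 0.1 and -0.48 with a pseudocount of 5. With the 1 transcript that matched by version as well, the call was lost (adjusted p = 0.0833). Of the other type I receptors, Acvr1b, which encodes the activin receptor ALK4, had a log2 fold change of 0.39 (adjusted p = 0.0749) and Acvr1, which encodes ALK2, one of 0.20 (adjusted p = 0.863). Acvr1 ranged from 1.06 to 22.5 TPM among naive libraries, a range that held all 3 CCl4 values.

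Within the class, the balance between receptors does not depend on the scaling of a library. Tgfbr1 made up 47.1% ± 2.20 of the summed TPM of the 7 type I receptors in CCl4 libraries against 23.1% ± 7.33 in naive libraries (SD, n = 3 and 5), with a range of 44.8% to 49.1% in CCl4 and 17.1% to 35.7% in naive libraries. Acvrl1 made up 26.1% ± 2.98 in CCl4 libraries against 42.8% ± 6.14 in naive libraries, with a range of 23.0% to 29.0% in CCl4 and 38.3% to 53.6% in naive libraries. Neither pair of ranges overlapped, so Tgfbr1 was the most abundant type I receptor in all 3 CCl4 libraries and Acvrl1 in all 5 naive libraries. The summed TPM of the class was 111 ± 10.8 in CCl4 libraries and 84.5 ± 15.9 in naive libraries, with overlap. These shares were not tested.

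**Figure D2:**
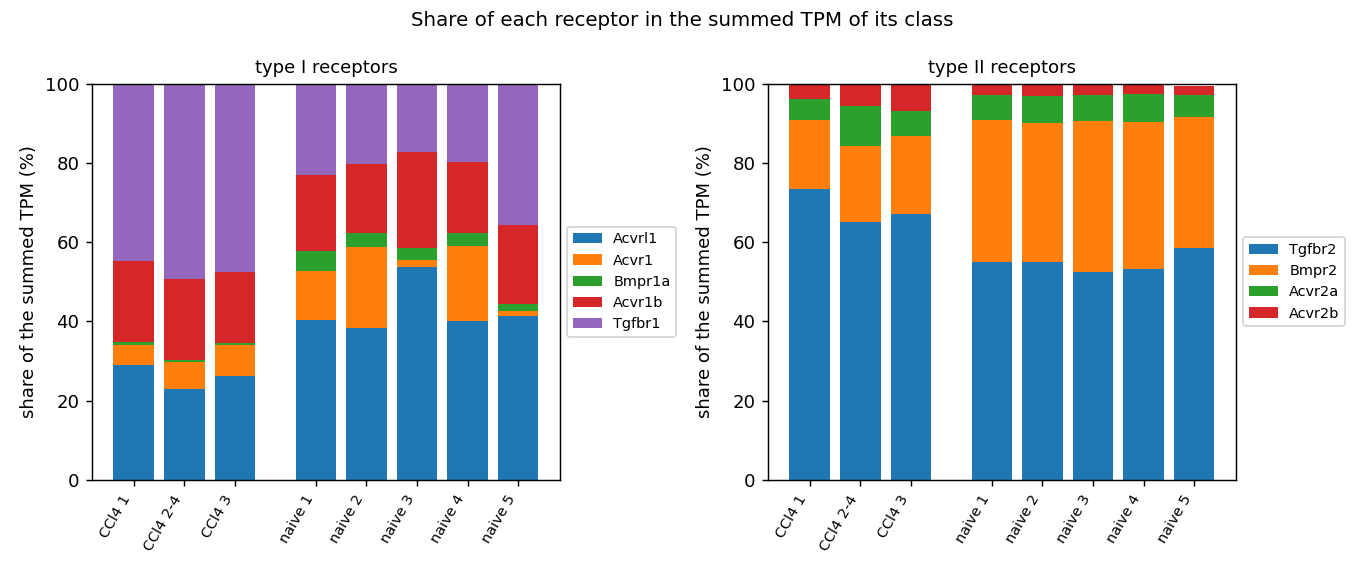
Stacked bars of the share of each type I (left) and type II (right) receptor in the summed TPM of its class, in percent, with the 3 CCl4 libraries left of the 5 naive libraries. Receptors at or under 1% in every library are not drawn. The Tgfbr1 share is 44.8% to 49.1% in CCl4 libraries and 17.1% to 35.7% in naive libraries, and the Bmpr2 share 17.5% to 19.6% in CCl4 libraries and 32.9% to 38.2% in naive libraries.

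Among type II receptors Bmpr2, the BMP receptor, had the largest log2 fold change, and Tgfbr2 and Acvr2a fell as well. Bmpr2 (chromosome 1, 59764279 to 59878081) had 18.3, 15.8 and 15.2 TPM in CCl4 libraries 1, 2-4 and 3, against 59.2, 68.6, 69.6, 57.9 and 42.3 TPM in naive libraries 1 to 5. The CCl4 values lay close together and all below naive library 5. The log2 fold change was -1.78 (SE 0.173, adjusted p = 2.12e-05). Tgfbr2 (chromosome 9, 116087695 to 116175363), the type II receptor for TGF-beta, had 76.9, 53.6 and 52.1 TPM in CCl4 libraries and 90.7, 108, 95.5, 82.7 and 75.3 TPM in naive libraries. CCl4 library 1 lay above naive library 5, and the log2 fold change was -0.58 (SE 0.169, adjusted p = 0.0206). The call of Tgfbr2 was lost without CCl4 library 2-4 (adjusted p = 0.0787), without CCl4 library 3 (0.0948) and with its most abundant transcript alone (0.0507). Acvr2a, which encodes an activin type II receptor, fell to 6.23 ± 1.72 TPM in CCl4 libraries against 10.7 ± 2.17 TPM in naive libraries (adjusted p = 0.0238), and Acvr2b was not called (log2 fold change 0.012, adjusted p = 0.975). The Bmpr2 share of the summed type II receptors was 18.8% ± 1.13 in CCl4 libraries against 35.9% ± 2.02 in naive libraries, and that of Tgfbr2 68.6% ± 4.33 in CCl4 libraries against 54.8% ± 2.38 in naive libraries, with no overlap for either. Bmpr2 per 1000 TPM of the endothelial list was 18.3 to 55.7 in CCl4 libraries against 4.43 to 5.09 in naive libraries, with no overlap. Per 1000 TPM of the Kupffer cell list it was 34.8 to 36.3 in CCl4 libraries against 9.06 to 21.3 in naive libraries. The lack of overlap held on both lists for each of the 10 genes other than Eng. Both sums fell by larger factors than these genes did, so higher ratios follow from the sums.

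Among the SMAD genes, the common partner Smad4 (chromosome 18, 73634790 to 73703791) had 35.0, 34.2 and 33.2 TPM in CCl4 libraries 1, 2-4 and 3, against 39.3, 49.6, 49.1, 41.1 and 34.7 TPM in naive libraries 1 to 5. The CCl4 values lay close together around the lowest naive value, with 1 of 3 above it, and the log2 fold change was -0.30 (SE 0.146, adjusted p = 0.13). It was called as lower without naive library 5 (-0.37, adjusted p = 0.0463), when rescaled to protein-coding genes (-0.37, adjusted p = 0.0149) and with the transcripts that matched by version alone (-0.68, adjusted p = 0.0468). Smad6 (chromosome 9, 63953076 to 64022085), which encodes the inhibitory SMAD that acts mainly on BMP signals, had 21.6, 23.7 and 22.9 TPM in CCl4 libraries and 69.3, 99.2, 97.7, 78.6 and 51.3 TPM in naive libraries. The CCl4 values hardly varied and lay below all naive values. The log2 fold change was -1.72 (SE 0.206, adjusted p = 8.64e-05). Smad7 (chromosome 18, 75367365 to 75395935), which encodes the inhibitory SMAD that acts on both branches, had 51.8, 80.5 and 72.6 TPM in CCl4 libraries and 61.1, 78.8, 71.1, 63.2 and 55.3 TPM in naive libraries. Its groups overlapped throughout, and the log2 fold change of 0.038 (SE 0.173, adjusted p = 0.887) changed sign under 5 of the alternatives, so it has no direction. Smad7 thus stood at 2.40 to 3.39 times the TPM of Smad6 in CCl4 libraries against 0.728 to 1.08 times in naive libraries.

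Of the receptor-regulated SMAD genes, those of the BMP branch fell and those of the TGF-beta branch were not called. Of the BMP branch, Smad1 fell to 26.2 ± 2.53 TPM in CCl4 libraries against 37.9 ± 5.36 TPM in naive libraries (adjusted p = 0.0194) and Smad5 to 7.23 ± 1.05 TPM in CCl4 libraries against 14.1 ± 2.34 TPM in naive libraries (adjusted p = 0.00277), while Smad9 was below the filter. Of the TGF-beta branch, Smad2 had a log2 fold change of 0.22 (adjusted p = 0.278) and Smad3 one of -0.11 (adjusted p = 0.579), and neither was called. Whether the branches differ was not tested. In all, 3 of 7 tested SMAD genes fell, Smad6 among them, and 0 rose, against 22.5% lower and 15.3% higher over all genes. The median over the 7 was -0.30 on the log2 scale, against -0.064 over all genes tested.

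Skil (chromosome 3, 31095058 to 31122923), whose product SnoN represses SMAD target genes and which is itself a known TGF-beta target, had 92.2, 109 and 82.5 TPM in CCl4 libraries 1, 2-4 and 3, against 33.9, 39.8, 29.4, 31.3 and 46.0 TPM in naive libraries 1 to 5. The lowest CCl4 value was well above the highest naive value, which was again that of library 5. Its log2 fold change was 1.37 (SE 0.170, adjusted p = 0.000106), and it was the most abundant of the 10 genes in CCl4 libraries, above Smad7 without overlap. Tgif1, which encodes another SMAD co-repressor, rose to 114 ± 11.3 TPM in CCl4 libraries against 36.4 ± 6.71 TPM in naive libraries (log2 fold change 1.64, adjusted p = 3.05e-05). Ski, the closest relative of Skil and named after its values were seen, stood at 17.7 ± 3.20 TPM in CCl4 libraries and 16.5 ± 2.58 TPM in naive libraries (adjusted p = 0.715). Of 15 genes that respond to tissue dissociation, such as Fos and Jun, 12 rose beside these, with a summed level of 4750.0 to 7188 TPM in CCl4 libraries against 2403 to 3349.7 TPM in naive libraries, and their part in the rise of Skil was not tested.

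**Figure D3:**
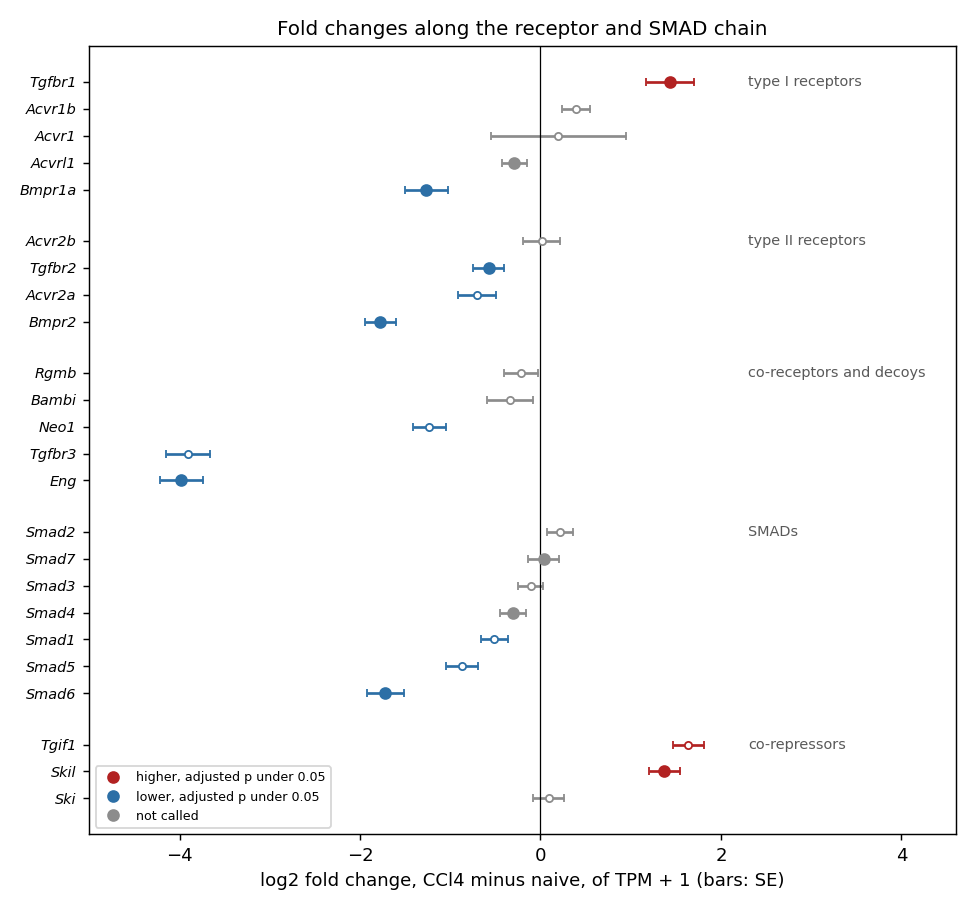
Log2 fold change of TPM + 1, CCl4 minus naive, with its SE as bars, for the tested receptors, co-receptors and SMAD genes and for Skil, Ski and Tgif1. Filled points are the 10 genes and open points others of the same classes; red is higher and blue lower at an adjusted p under 0.05, and grey was not called. Eng lies at -3.98 and Tgfbr3 beside it, and Tgfbr1, Skil and Tgif1 are the only ones to the right of 0 that were called.

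The transcripts behind these sums were then compared. The files held 30 transcripts of the 10 genes, of which 25 passed the filter, 4 rose and 9 fell, where 19% of all 35637 tested transcripts were called, 7.56% as higher and 11.4% as lower. Of the 9 that fell, 2 passed the filter through their naive values alone, NM_001277259 of Acvrl1 and XM_006510822 of Smad6. How reads shared by transcripts of a gene are split among them is an estimate whose error is not given in the sources used here. All 3 Eng transcripts fell. NM_007932, with a coding sequence of 653 residues, held 77.1% ± 10.1 of Eng TPM in CCl4 libraries against 72.3% ± 5.39 in naive libraries, with overlap of the ranges. Both Bmpr2 transcripts fell as well, and of the 4 Skil transcripts the 2 abundant ones rose.

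The sum of Acvrl1 was not called, and its 5 transcripts have the same coding length of 502 residues. NM_001277257 fell to 3.88 ± 4.23 TPM in CCl4 libraries against 16.1 ± 4.66 TPM in naive libraries (adjusted p = 0.0321). NM_001277258 stood at 26.7, 14.9 and 12.3 TPM in CCl4 libraries and at most 10.99 TPM in naive libraries, with no overlap but an adjusted p of 0.164. NM_001277259 was listed at 0 in all 3 CCl4 libraries and at 1.24 to 2.82 TPM in naive libraries, through which alone it passed the filter. GENCODE lists NM_001277257 and NM_001277258 under the same transcript model, so how reads were assigned between them could not be checked here.

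Tgfbr1 TPM was assigned mainly to a pair of transcripts with different starts, and both rose. NM_001312869, which begins at the downstream start (GENCODE position 47386216 on chromosome 4) and encodes 420 residues, rose to 35.0 ± 9.27 TPM in CCl4 libraries against 14.9 ± 5.68 TPM in naive libraries (adjusted p = 0.0213). NM_001312868, which begins at 47353307, just past the upstream window, and encodes 499 residues, rose to 17.4 ± 2.61 TPM in CCl4 libraries against 4.75 ± 2.25 TPM in naive libraries (adjusted p = 0.00762). The transcript from the downstream start was thus assigned 66.0% ± 8.75 of Tgfbr1 TPM in CCl4 libraries against 76.1% ± 7.19 in naive libraries. The ranges overlapped. How reads were assigned between these transcripts could not be checked here, so which start is used more is not established. The transcript of 503 residues, NM_009370, was at most 0.295 TPM in any library.

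Smad6 was carried by a major and a minor transcript. NM_008542, with 495 residues, fell to 22.4 ± 0.752 TPM in CCl4 libraries against 68.8 ± 17.5 TPM in naive libraries. The predicted transcript XM_006510822 was at most 0.950 TPM in CCl4 libraries and averaged 10.4 ± 2.65 TPM in naive libraries, through which alone it passed the filter. Its share of Smad6 TPM was at most 4.00% in a CCl4 library and 12.2% to 13.9% in the naive libraries, where it was nearly constant. The difference between the shares was not tested.

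**Figure D4:**
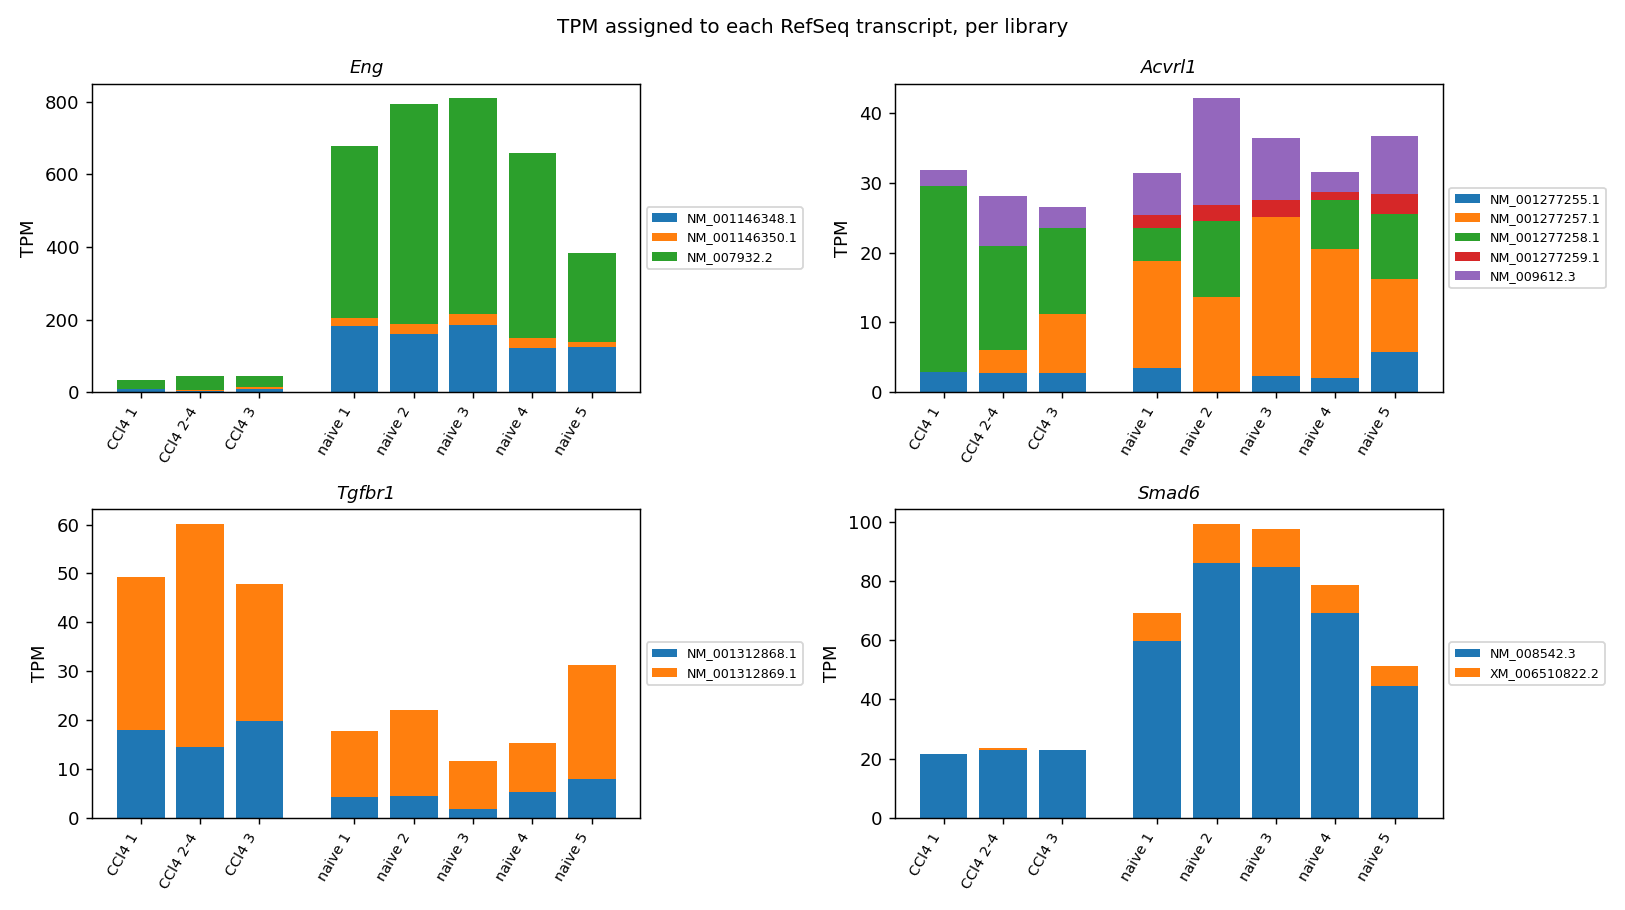
Stacked bars of the TPM assigned to each RefSeq transcript of Eng, Acvrl1, Tgfbr1 and Smad6, with the 3 CCl4 libraries left of the 5 naive libraries; transcripts under 0.5 TPM in every library are not drawn. Eng falls in all its transcripts, and both Tgfbr1 transcripts are higher in CCl4 libraries. The Acvrl1 total overlaps between the groups (26.6 to 31.8 TPM in CCl4 libraries and 31.4 to 42.1 TPM in naive libraries). Its assigned split differs, but how reads were assigned between transcripts of the same model could not be checked.

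The rest of the pathway was read from lists by role. Besides the 10 genes, 111 others were listed, of which 73 were tested, and 17 rose and 24 fell, against 15.3% higher and 22.5% lower over all genes. Gdf3 and Ltbp2 among the rises passed the filter through their CCl4 values alone, and Inhbe, Neo1 and Mmp9 among the falls through their naive values alone. Mmp9 is named for that reason only, after its values were seen. Their median log2 fold change was -0.094. Of the 7 tested BMP and GDF ligands 3 rose and 2 fell. Bmp2 fell to 15.2 ± 4.59 TPM in CCl4 libraries against 296 ± 41.8 TPM in naive libraries, and Bmp6, which signals iron load to hepatocytes, to 3.56 ± 2.35 TPM in CCl4 libraries against 65.6 ± 15.1 TPM in naive libraries. Gdf3 rose to 10.6 ± 5.63 TPM in CCl4 libraries against 0.734 ± 0.184 TPM in naive libraries, none of which reached 1 TPM. Gdf2 and Bmp10, which encode the ALK1 ligands BMP9 and BMP10 and were named after their values were seen, were near the floor, at most 1.97 and 1.45 TPM in any library.

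Of 5 tested TGF-beta and activin ligands 1 rose and 2 fell, against 15.3% higher and 22.5% lower over all genes. Tgfb1 was the most abundant of them, at 155 ± 15.4 TPM in CCl4 libraries and 166 ± 23.7 TPM in naive libraries (adjusted p = 0.665). Tgfb3 rose to 7.97 ± 0.601 TPM in CCl4 libraries against 3.77 ± 2.69 TPM in naive libraries (adjusted p = 0.0257), but naive library 5 held 8.57 TPM and the other naive libraries 2.39 to 2.83 TPM. The activin beta chain gene Inhbb fell (log2 fold change -3.16), as did Inhbe (-0.85), and Inha was not called (-0.45, adjusted p = 0.17).

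Genes that store and activate latent TGF-beta moved both ways, 5 of 11 higher and 3 lower. Over all genes tested, 15.3% were higher and 22.5% lower. Lrrc32, which encodes the latent TGF-beta anchor GARP, fell to 5.31 ± 2.16 TPM in CCl4 libraries against 104 ± 16.1 TPM in naive libraries. Of the latent TGF-beta binding proteins, Ltbp4 fell to 12.1 ± 7.64 TPM in CCl4 libraries against 392 ± 79.2 TPM in naive libraries and Ltbp3 rose to 14.4 ± 4.62 TPM in CCl4 libraries against 2.23 ± 0.559 TPM in naive libraries. Among extracellular antagonists 2 of 4 tested genes fell, the BMP modulator Bmper and the proteoglycan gene Tsku (log2 fold changes -1.37 and -2.17), and none rose. All 24 endothelial markers fell beside Bmp2, Bmp6, Lrrc32 and Ltbp4, to a sum of 329 to 863 TPM in CCl4 libraries against 8395 to 15718 TPM in naive libraries.

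Co-repressors and regulators of SMAD turnover had 5 of 17 higher and 2 lower, with Tgif1 and Skil among the rises and Fkbp1a, which encodes an immunophilin that keeps type I receptors inactive, at a log2 fold change of -1.90. Over all genes tested, 15.3% were higher and 22.5% lower. The lists of response genes also hold some of the 10 genes, and they share genes with the co-repressor list. Of 10 tested BMP response genes 4 fell, Smad6 among them, and 1 rose. Id4, an inhibitor of helix-loop-helix factors, fell to 0.889 ± 0.708 TPM in CCl4 libraries against 27.2 ± 7.53 TPM in naive libraries, while its relative Id2 rose to 263 ± 59.1 TPM in CCl4 libraries against 143 ± 12.1 TPM in naive libraries. Of 18 TGF-beta response genes 7 rose, Skil among them, and 5 fell, against the same 15.3% higher and 22.5% lower over all genes. Tgif1 and Ltbp2 rose (log2 fold changes 1.64 and 1.67), and Ccn2, connective tissue growth factor, fell to 5.37 ± 0.628 TPM in CCl4 libraries against 36.1 ± 11.8 TPM in naive libraries. Neither list thus moved in 1 direction, with medians of -0.43 and 0.24.

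**Figure D5:**
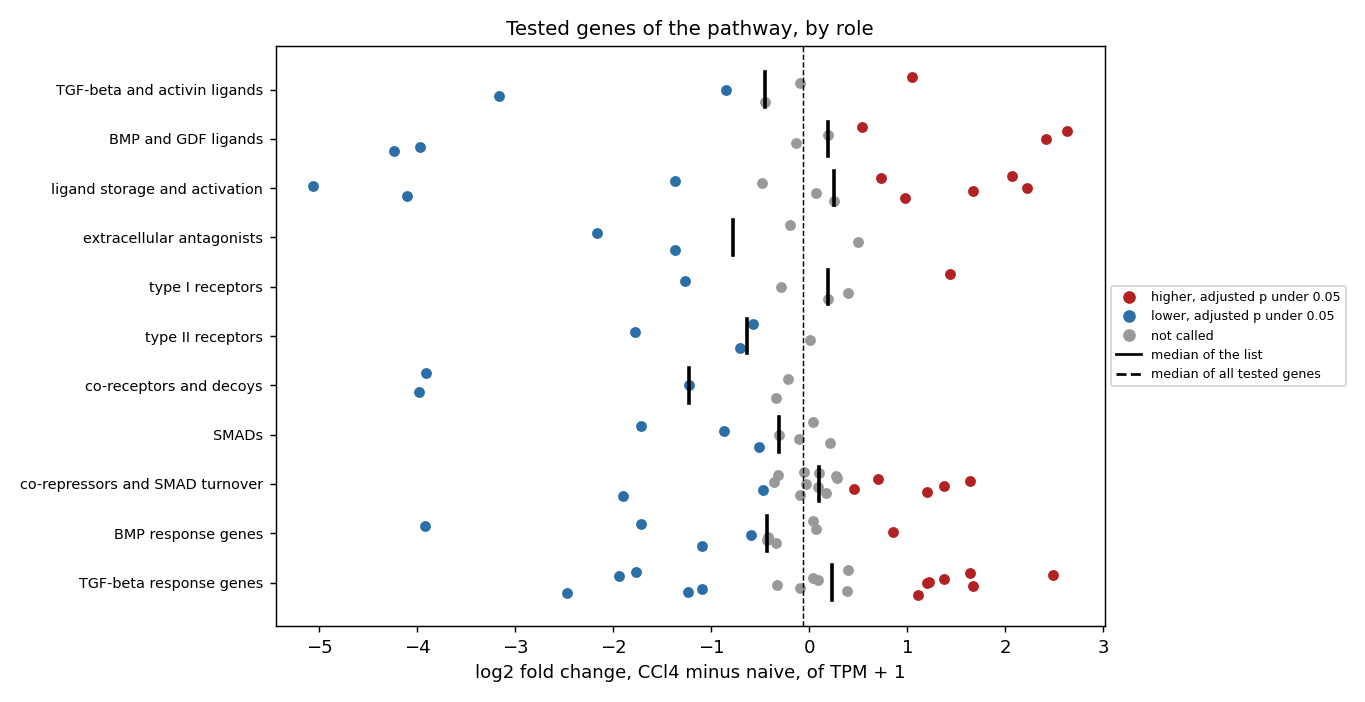
Log2 fold change of TPM + 1, CCl4 minus naive, of each tested gene of 11 lists of the pathway; red is higher and blue lower at an adjusted p under 0.05, grey was not called, the black bar is the list's median and the dashed line the median of all tested genes, -0.064. Called genes lie on both sides in most lists, while the extracellular antagonists, type II receptors, co-receptors and SMAD genes hold called genes on the lower side only.

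The genes whose profile over the 8 libraries lay nearest to each of the 10 were taken from 7943 tested genes with a mean of at least 10 TPM, by Euclidean distance of log2(TPM + 1) after each gene's mean was taken off. For Eng they were Epas1, a hypoxia-inducible transcription factor of endothelium and other cells, and Cdh5, the cadherin of endothelial junctions, at distances of 0.302 and 0.367. For Bmpr2 they were Rbms2 and Lrrc58 (0.167 and 0.198), for Smad6 Mcu and Cbx6 (0.240 and 0.245) and for Bmpr1a AW112010 and Rxra (0.347 and 0.406). For Tgfbr1 they were the histone gene H4c6 and Arhgap11a (0.272 and 0.303), and for Skil Mier2 and Pip4k2a (0.190 and 0.218). Acvrl1 lay nearest to Ppp4r1 and Sel1l, Tgfbr2 to Ncstn and Ywhab, Smad4 to Abcf3 and Nmi and Smad7 to Ncoa2 and Phlpp1. None of the 10 genes was among the nearest pair of another, but Bmpr1a was below the mean of 10 TPM and so not searched. With 7943 genes searched, this says little about whether the 10 genes move together.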

How the data were processed

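RNA was sequenced from Kupffer cells in 3 CCl4 and 5 naive libraries. Per the file headers, the authors deposited TPM for each RefSeq transcript, made with kallisto 0.42.4 on GRCm38, the tool and build in the submitters' processing notes. How reads were trimmed and how the cells were isolated is not given in the sources used here. Of 107384 transcripts, 86722 matched a RefSeq gene table of GRCm38.p6 by accession without version and were summed to genes. The 20662 others, 6.06% to 7.58% of a library's TPM, were left out. Protein-coding genes held 45.5% to 56.0% of a library's TPM. TPM hold no depth, so precision comes from the spread among libraries.

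The test was limma 3.58.1 (R 4.3.3) on log2(TPM + 1), with an intensity trend and group as its only term. It covered the 15629 genes that reached 1 TPM in 3 or more libraries, with Benjamini-Hochberg adjustment over all of them, and transcripts likewise. The fit was tested on simulated data. Changes of low genes are understated on this scale. All 10 genes are named, as are all tested genes of lists of up to 8 and otherwise the 3 called genes with the smallest adjusted p in a list. The genes and lists were chosen with earlier results of these data known.

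The results were recomputed with other pseudocounts, filters, scalings, variance models and transcript choices, with library weights or a replicate block, and without each library in turn.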

Additional observations from a re-analysis of the deposited data

Results flagged for a closer look

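The share of Acvrl1 in the summed TPM of type I receptors was 53.6% in naive library 3, and 38.3% to 41.4% in the other naive libraries, a gap to the nearest of 0.796 of the whole range. Acvr1 made up 1.86% of the class in that library and 1.20% in naive library 5. The Acvrl1 share was the only one of 19 values examined over the 5 naive libraries to stand so far from the rest, and chance gives about 1 in 20.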

How the results depend on the processing

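Of 209 values of single genes under an alternative, 193 kept their direction and their side of the threshold, 6 lost a call, 5 gained one and 5 changed sign. The losses were in Tgfbr2 and Bmpr1a and the gains in Acvrl1 and Smad4. All sign changes were in Smad7, which was never called: -0.019 when rescaled to protein-coding genes, -0.10 with the replicate block, and -0.091 to 0.22 when each library was left out. Between 6 and 9 of the 10 genes were called under 19 alternatives, and Tgfbr1 and Skil were the rises in all of them. The count of genes without overlap was 6 as deposited and 7 under another scaling of the libraries. It was 9 when rescaled to protein-coding genes, 9 without CCl4 library 1, 8 without naive library 5 and 6 on leaving out any other. Quantile normalization called 4011 genes higher over all genes, against 2393, and moved the median log2 fold change of all genes to 0.11, against -0.064. The numbers 1 and 3 occur in both groups, and same-numbered libraries deviated from their group means with correlations of 0.0772 and -0.0414. So few pairs cannot tell whether a shared number stands for anything more, and the labels do not say. With the replicate block, 5312 genes and 6 of the 10 were called, without Tgfbr2 (adjusted p = 0.154). That fit drew the group term only from libraries 1 and 3 of each group, as every other number occurs once. Its calls therefore rest on very little spread among libraries. The cause of these shifts was not tested, and depth is unknown.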
